A study of Mus musculus with 12 samples.

Results

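The 10 genes described here were selected by name for their place in the conversion of tryptophan to nicotinamide adenine dinucleotide (NAD), and their liver RNA was compared among 3 groups of mice. They are Tdo2, Afmid, Kmo, Kynu, Haao, Acmsd, Qprt, Nadsyn1, Nampt and Nnmt. All 10 were found in the array annotation, each through a single probe set that names no other gene, and all 10 passed the filter on dim genes. They are 10 of 19938 named genes, of which 14953 were tested. The members, and the role lists used below, were chosen with earlier results of these data known. Their shares and medians set beside those of all genes are therefore descriptions and not tests. Livers of 12 mice aged 7 weeks were measured, 1 array per animal, with 4 animals in each group. The groups were wild type controls, transgenic mice with a constitutively active FoxO3, a forkhead transcription factor restrained by insulin signalling, and mice with this same transgene that were given metformin, a glucose-lowering drug. The transgene was driven by the LAP promoter, a promoter used to direct expression to the liver, and all animals came from mixed C57BL/6 and NMRI stock that had been backcrossed to C57BL/6 at least 4 times. The labels state neither the animals' sex nor how, at what dose and for how long metformin was given. Wild type mice given metformin were not analysed here.

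The liver is the main site where tryptophan is turned into NAD. Tdo2 opens the ring of tryptophan, Afmid releases kynurenine, and Kmo, Kynu and Haao carry it to an unstable product that can take either of 2 routes. Left alone this product closes to quinolinate, which Qprt turns into a nicotinate nucleotide that Nadsyn1 later amidates to NAD, whereas Acmsd removes it towards complete breakdown, away from NAD. Nampt remakes NAD from nicotinamide, the salvage route, and Nnmt methylates nicotinamide so that it leaves the cycle.

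The tissue carried the markers of liver. All 7 measured hepatocyte markers, among them Alb and Hnf4a, passed the filter on dim genes, and their summed signal lay between 16.03 and 16.17 on the log2 scale in all 12 livers. The sum of 8 Kupffer cell and macrophage markers lay between 12.63 and 13.26 in transgenic, 11.91 and 12.75 in wild type, and 11.85 and 12.79 in metformin-treated livers. Of these 8 markers 3 rose in transgenic against wild type livers, and 3 fell in metformin-treated against transgenic livers. All 8 passed the filter, and their part in the results below was not tested. Of the 7 hepatocyte markers Ttr fell in transgenic livers (-0.44, adjusted p = 0.0166) and rose with metformin (0.40, adjusted p = 0.0128). Of 8 stellate cell and fibroblast markers 1 rose (Dcn) and 1 fell (Col1a1) in transgenic livers, and 2 fell with metformin (Des and Ecm1). For endothelial (8 tested), lymphocyte (5), cholangiocyte (3) and fat cell (3) markers limma called none between transgenic and wild type livers, although the fat cell sum reached 9.21 in transgenic and 8.15 in wild type livers. Of these lists' genes limma called 1, Cidec of the fat cell list, lower with metformin than in transgenic livers. The mean of Cidec was 6.97 in wild type and 7.96 in transgenic livers. The other tested genes of that list, Plin1 (-0.24) and Retn (-0.14), were lower in transgenic livers though not called, and Adipoq and Lep did not pass the filter. Foxo3 itself read between 8.60 and 8.97 in transgenic and between 8.54 and 8.89 in wild type livers. The sources used here do not say whether its probes read the transgene. Xist was high (10.57 to 11.95) in all 4 metformin-treated livers and in wild type replicates 1 and 4, and low (4.24 to 4.70) in all 4 transgenic livers and in wild type replicates 2 and 3. Metformin treatment and this sex-linked signal therefore cannot be told apart in the comparison of the 2 transgenic groups, and beside the results stand values from arrays of one kind of signal or from a fit with Xist minus Y-linked signal as a covariate. Over all tested genes the mean Pearson r of transgenic replicate 2 was 0.968 to its own group and 0.984 to wild type arrays. Results are therefore also given without it. Because it was singled out for its likeness to wild type, larger transgenic differences and more calls without it follow in part from that choice. For metformin-treated replicate 3 the mean r to the other treated arrays was 0.974, below that of the other 3 (0.987 to 0.989).

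In transgenic against wild type livers the branch enzyme Acmsd rose 4.22-fold, while Haao, which makes the substrate of Acmsd, and Nadsyn1, the last enzyme of the route to NAD, fell 2.08-fold and 1.66-fold. These were the 3 of 10 members called by limma at an adjusted p under 0.05; 14.1% of all tested genes were called in this comparison, 7.97% higher and 6.15% lower. The share of higher among all called genes was 56.5%, and 74.5% when each array was centred on its median. The same 3 members were those whose 4 transgenic livers did not overlap with the 4 wild type livers, against 21.9% of all tested genes (10.9% higher and 11.0% lower). The median log2 difference over the 10 members was -0.29, against -0.01 over all tested genes, and the median size of the difference was 0.55 against 0.17. Without transgenic replicate 2, the transgenic array most like wild type, 9 of 10 members were called, all but Kmo. Of these 6 were lower and 3 higher, and the count over all genes also went from 2111 to 4004. Such an increase is in part built into leaving out that array. With the sex-linked covariate 2 members passed, Acmsd and Nadsyn1 and not Haao, where 650 of all tested genes did. With only the 4 transgenic and 2 wild type arrays that share Y-linked signal, 0 members passed after adjustment in limma. In that fit 9 of all tested genes passed, and 4 members had an unadjusted p under 0.05.

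In metformin-treated against untreated transgenic livers the differences ran the other way for the members that were called. Acmsd fell 4.30-fold, and Nadsyn1, Afmid, Haao and Tdo2 rose 2.03-fold, 2.17-fold, 1.88-fold and 1.25-fold. These are 5 of 10 members, 4 higher and 1 lower, where 24.7% of all tested genes were called (10.6% higher and 14.1% lower). Of all called genes 42.8% were higher, and 30.0% with median centring. Acmsd, Qprt and Nadsyn1 had groups that did not overlap, against 21.6% of all genes (9.93% higher and 11.7% lower). The median log2 difference over members was 0.36, against -0.01 over all tested genes. The comparison shares its transgenic arrays with the one before, so the opposite signs are not independent. With the sex-linked covariate 0 of the 10 members passed, where 82 of the 14953 tested genes did, against 3695 without it. Of the members 5 had an unadjusted p under 0.05, and the estimate for Acmsd was -2.01 ± 0.57 (limma estimate ± SE, adjusted p = 0.102). With transgenic replicate 2 left out of that fit as well, the 5 members Acmsd, Afmid, Haao, Nadsyn1 and Tdo2 passed, where 1845 of all tested genes did.

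Between metformin-treated transgenic and wild type livers 0 of the 10 members were called by limma, and 1, Nampt, had an unadjusted p under 0.05; 2.43% of all tested genes were called (0.99% higher and 1.44% lower). The median log2 difference over members was 0.04 and the median size 0.11, against 0.12 over all tested genes. Nampt and Nadsyn1 lay higher and Kynu lower in every metformin-treated liver than in any wild type liver, while 14.4% of all tested genes had groups that did not overlap (6.21% higher and 8.23% lower). Over the 3 groups together, limma's moderated F test called 5 members, Acmsd, Nadsyn1, Haao, Nampt and Afmid, where it called 24.2% of all genes. Adjusted p-values were 0.00202 for both Acmsd and Nadsyn1 and 0.0168 for Haao.

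**Figure D1:**
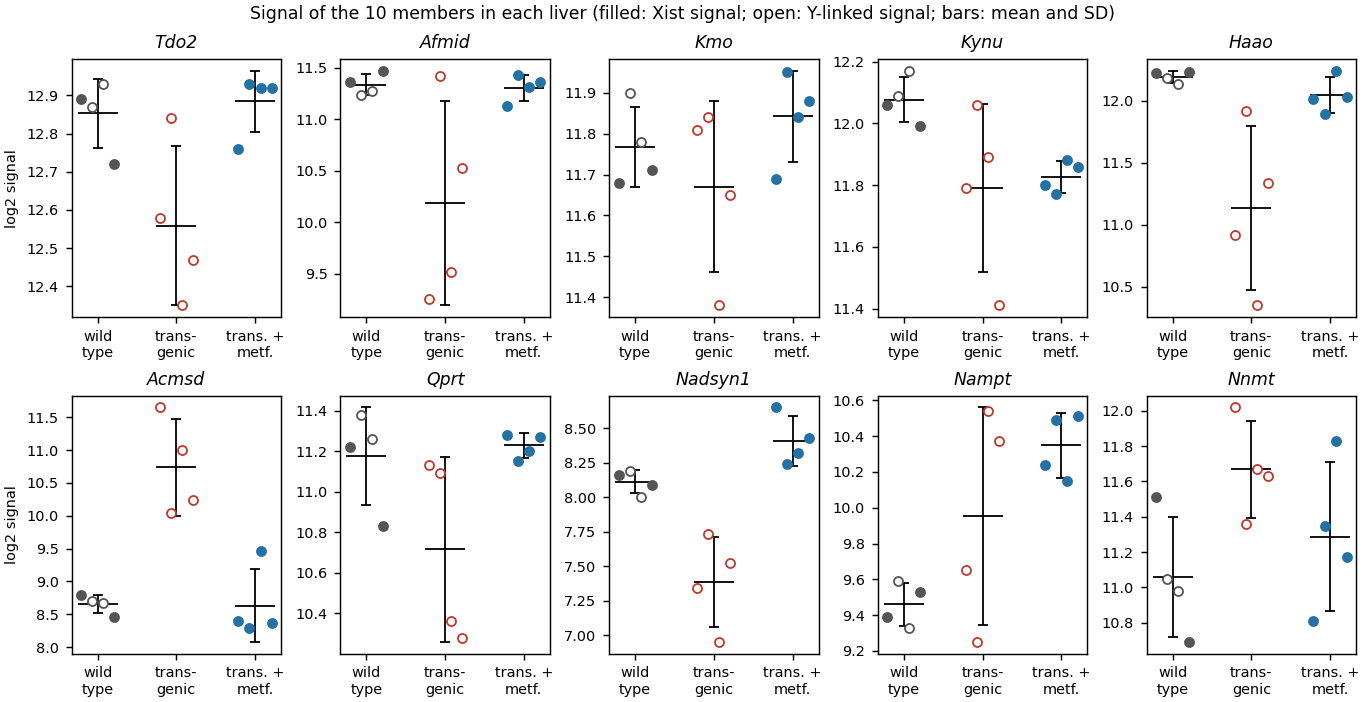
Log2 signal of each of the 10 members (1 panel per gene, own vertical scale) in the 12 livers by group; points are single livers, filled where Xist signal and open where Y-linked signal was found, and the horizontal line and bar give the mean and SD of 4 livers. Acmsd stands between 10.05 and 11.65 in transgenic livers and below 9.47 in all others, and Afmid and Haao spread widely in the transgenic group.

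Acmsd is the aminocarboxymuconate semialdehyde decarboxylase that sends the pathway away from NAD. It read 8.80, 8.71, 8.67 and 8.46 in wild type livers 1 to 4 and 11.65, 10.05, 11.00 and 10.24 in transgenic livers. In metformin-treated livers it read 8.40, 8.29, 9.46 and 8.37. The transgenic values all lay above the others, and among the treated livers replicate 3 stood apart at the top. The rise over wild type was 2.08 ± 0.33 on the log2 scale (limma estimate ± SE, adjusted p = 0.00419) and the fall with metformin 2.10, at -2.10 ± 0.33 (adjusted p = 0.00146). Metformin-treated and wild type means were 8.63 and 8.66, with a difference of -0.03 whose 95% interval ran from -0.75 to 0.70. Both calls against the transgenic group held with each of the 12 arrays left out in turn (1.77 to 2.31 and -2.38 to -1.80). With the sex-linked covariate the rise was still called, but the fall with metformin was not (limma adjusted p = 0.102). On arrays with Y-linked signal only, the rise was 2.05 ± 0.44 (adjusted p = 0.138), and wild type livers with Xist signal (8.80 and 8.46) overlapped with those with Y-linked signal (8.71 and 8.67). In bulk liver RNA, more cells that express a gene and more RNA per cell cannot be told apart.

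The promoters of Haao and Nadsyn1 are shown as those of the 2 members that fell in transgenic livers. They are the 250 bases before an annotated start site in the RefSeq tables for build GRCm38.p6, written 5′ to 3′ on the gene's strand. The Haao window lies inside the annotated span of the gene, whose outer 5′ end is at 83848981. Bases beyond that end were not searched. Capitals would mark AAACA, the core that forkhead factors such as FoxO3 bind, or TGTTT, its reverse complement, and neither window holds a match.
Haao promoter, chr17:83846791-83847040, minus strand: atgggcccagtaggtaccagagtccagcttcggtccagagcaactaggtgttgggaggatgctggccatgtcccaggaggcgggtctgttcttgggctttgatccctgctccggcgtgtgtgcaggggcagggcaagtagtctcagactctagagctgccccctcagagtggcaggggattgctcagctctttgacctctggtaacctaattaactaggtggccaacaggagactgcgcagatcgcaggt
Nadsyn1 promoter, chr7:143822853-143823102, minus strand: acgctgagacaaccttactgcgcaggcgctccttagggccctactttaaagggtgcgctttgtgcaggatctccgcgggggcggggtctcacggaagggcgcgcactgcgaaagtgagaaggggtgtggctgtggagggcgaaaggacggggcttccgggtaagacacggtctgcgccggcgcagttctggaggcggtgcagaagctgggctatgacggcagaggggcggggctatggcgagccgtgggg
Windows of 7 members were searched. The core was found, on either strand, in 46.4% of 32851 RefSeq promoter windows of the same length and in 3 of the 7 (Tdo2, Kmo and Qprt). The longer FoxO element GTAAACA, or TGTTTAC, which contains the core, was in 3.17% of all windows and in 0 of the 7. AGGTCA, or TGACCT, a nuclear receptor half-site that cannot lie within the other motifs, was in 14.02% of all windows and in 3 of the 7 (Tdo2, Haao and Nampt). A match is a run of letters and not a measured binding site, and the lack of a match says only that these letters are not in the window. No window was matched for Kynu and Nnmt.

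Tdo2, tryptophan dioxygenase, is the first and commonly rate-limiting step of the route. It read 12.89, 12.87, 12.93 and 12.72 in wild type, 12.58, 12.84, 12.35 and 12.47 in transgenic, and 12.76, 12.93, 12.92 and 12.92 in metformin-treated livers. Transgenic replicate 2 lay among the wild type values and the other 3 transgenic livers below them. The difference from wild type was -0.29 ± 0.10 (limma, adjusted p = 0.0693), and the rise with metformin was 0.33 ± 0.10 (adjusted p = 0.0338). Leaving out any one of transgenic replicates 1, 3 and 4 or metformin-treated replicates 2, 3 and 4 took that call past 0.05 (adjusted p from 0.0525 to 0.102). It was also lost with median centring, on the 8 arrays compared and with the sex-linked covariate.

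Afmid, the formamidase that frees kynurenine, varied most within a group. Wild type livers read 11.36, 11.24, 11.27 and 11.47 and treated livers 11.13, 11.43, 11.31 and 11.36. Transgenic livers read 9.26, 11.42, 9.52 and 10.53. Replicates 1, 3 and 4 were below every other liver and replicate 2 was within the wild type range, which gave an SD of 0.99 against 0.10 in wild type. The difference from wild type was -1.15 ± 0.36 (adjusted p = 0.0512). It passed without metformin-treated replicate 3 (0.0470) and was, without transgenic replicate 2, -1.56 ± 0.23 (adjusted p = 6.66e-04). Metformin-treated livers were higher than transgenic ones by 1.12 ± 0.36 (adjusted p = 0.0393), a call lost with any single array other than transgenic replicates 2 and 4 left out (adjusted p up to 0.119). That call was also lost without the filter on dim genes, on the 8 arrays compared and with the sex-linked covariate.

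Kmo and Kynu, the monooxygenase and the hydrolase of the middle steps, were called in no comparison over the 12 arrays. Kmo ranged from 11.38 to 11.95 over all 12 livers, with group means of 11.77, 11.67 and 11.84 in wild type, transgenic and treated livers. Its 95% interval for transgenic minus wild type ran from -0.33 to 0.13 (adjusted p = 0.545). Kynu read 12.06, 12.09, 12.17 and 11.99 in wild type, 11.79, 12.06, 11.89 and 11.41 in transgenic, and 11.80, 11.77, 11.88 and 11.86 in treated livers. All treated livers were below all wild type livers, by 0.25 on average (difference -0.25 ± 0.11, adjusted p = 0.295), and the transgenic difference from wild type was -0.29 ± 0.11 (adjusted p = 0.112). Without transgenic replicate 2 it was -0.38 (adjusted p = 0.0227), and with array weights -0.44 (0.00744), both past the threshold. Treated and transgenic livers differed in Kynu by 0.04 ± 0.11 (adjusted p = 0.846).

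Haao, the dioxygenase whose product Acmsd consumes, held a narrow range in wild type livers, at 12.22, 12.18, 12.13 and 12.23. It read 10.92, 11.92, 10.35 and 11.34 in transgenic and 12.01, 11.89, 12.24 and 12.03 in treated livers. Every transgenic liver was below every wild type liver, and only transgenic replicate 2 reached the treated range. The fall was -1.05 ± 0.25 (adjusted p = 0.0184) and the rise with metformin 0.91 ± 0.25 (adjusted p = 0.0194). Without transgenic replicate 1 these had adjusted p-values of 0.0507 and 0.0533, and without wild type replicate 1 the fall had 0.0502. The rise was not called on the 8 arrays compared, and neither the fall nor the rise was called with the sex-linked covariate. On arrays with Y-linked signal only the difference from wild type was -1.02 ± 0.40 (adjusted p = 0.225).

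Qprt makes the nicotinate nucleotide from quinolinate. It read 11.22, 11.38, 11.26 and 10.83 in wild type, 11.13, 11.09, 10.36 and 10.28 in transgenic, and 11.28, 11.15, 11.20 and 11.27 in treated livers. The 4 treated livers were above the 4 transgenic ones, with a difference of 0.51 ± 0.19 (adjusted p = 0.0695), while transgenic and wild type livers overlapped (-0.46 ± 0.19, adjusted p = 0.123). Without transgenic replicate 2 both differences passed, at 0.64 ± 0.19 (adjusted p = 0.0220) and -0.59 ± 0.19 (adjusted p = 0.0387). In wild type livers those with Xist signal averaged 11.03 and those with Y-linked signal 11.32.

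Nadsyn1, the NAD synthetase, was called in both comparisons with the transgenic group. Wild type livers read 8.16, 8.19, 8.0 and 8.09 and transgenic livers 7.34, 7.73, 6.95 and 7.52. Treated livers read 8.65, 8.24, 8.32 and 8.43. The 3 groups did not overlap, with transgenic lowest and treated highest. The fall in transgenic livers was -0.73 ± 0.15 (adjusted p = 0.0106) and the rise with metformin 1.02 ± 0.15 (adjusted p = 8.14e-04). Both calls held with each single array left out. With the sex-linked covariate the fall was still called, but the rise was not (limma adjusted p = 0.0728). The difference between treated and wild type livers, 0.30 ± 0.15, did not pass (adjusted p = 0.332). The fall was -0.71 ± 0.21 (adjusted p = 0.182) on arrays with Y-linked signal only.

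Nampt is the rate-limiting enzyme of NAD salvage. It read 9.39, 9.59, 9.33 and 9.53 in wild type, 9.65, 9.25, 10.54 and 10.37 in transgenic, and 10.24, 10.49, 10.15 and 10.51 in treated livers. Transgenic replicates 3 and 4 stood with the treated livers, and replicate 2 was the lowest of all 12. Treated livers were 0.89 ± 0.23 above wild type (adjusted p = 0.0698), and this difference was as large on the 6 arrays with Xist signal (0.89 ± 0.14, adjusted p = 0.125). It passed in the fits without transgenic replicate 2 (adjusted p = 0.0185) or replicate 3 (0.0437), which change the pooled spread and not the difference. It was also called by limma on the 8 arrays compared and with array weights. Transgenic minus wild type was 0.49 ± 0.23 (adjusted p = 0.170) and, without transgenic replicate 2, 0.73 ± 0.18 (adjusted p = 0.0135).

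Nnmt, the nicotinamide methyltransferase, read 11.51, 11.05, 10.98 and 10.69 in wild type livers. It read 12.02, 11.36, 11.67 and 11.63 in transgenic and 10.81, 11.35, 11.83 and 11.17 in treated livers. All 3 groups overlapped, with the transgenic mean highest. The difference from wild type was 0.61 ± 0.22 (adjusted p = 0.0840), and it passed without transgenic replicate 2 (adjusted p = 0.0403) or without metformin-treated replicate 3 (0.0392). Treated minus transgenic was -0.38 ± 0.22 (adjusted p = 0.232).

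**Figure D2:**
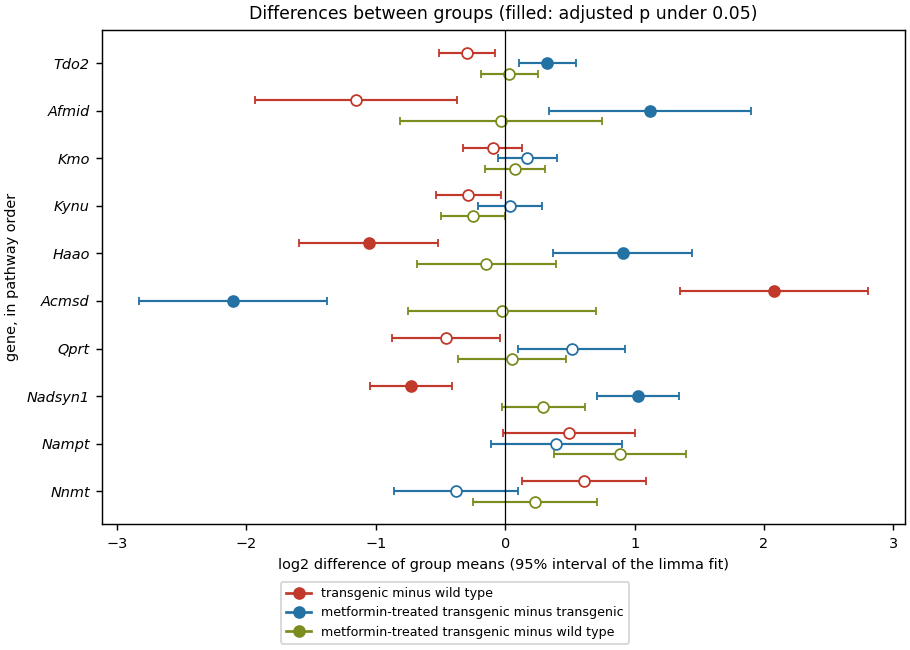
Log2 differences of group means for the 10 members in pathway order, with 95% intervals of the limma fit over 12 arrays; filled points passed an adjusted p of 0.05. Acmsd stands alone on the right for transgenic minus wild type (2.08) and on the left for metformin-treated minus untreated transgenic (-2.10), and no point is filled for metformin-treated transgenic minus wild type.

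The members varied more among transgenic livers than among the others. The SD was larger in transgenic than in wild type livers for 9 of 10 members, all but Nnmt, and its median over members was 0.39 in transgenic, 0.10 in wild type and 0.14 in treated livers. The share of all tested genes with this order is not given here, so the spread is not shown to be particular to the members. Over all tested genes the mean r of an array to its own group was 0.968 to 0.984 in transgenic, 0.987 to 0.989 in wild type and 0.974 to 0.989 in treated livers. Since the fit pools the spread of the groups, p-values for differences that involve the transgenic group may be too small. Those for treated against wild type livers may be too large. Transgenic replicate 2 was the transgenic liver nearest to the wild type mean for 7 of 10 members (Tdo2, Afmid, Kynu, Haao, Acmsd, Nadsyn1 and Nnmt) and replicate 1 for the other 3. Acmsd remained 1.39 above the wild type mean in replicate 2, whereas Afmid (0.08), Tdo2 (-0.02) and Kynu (-0.02) stood at it. Replicates 1 and 3 had the largest deviations in Acmsd (3.00 and 2.34), Afmid (-2.07 and -1.82) and Haao (-1.27 and -1.84).

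**Figure D3:**
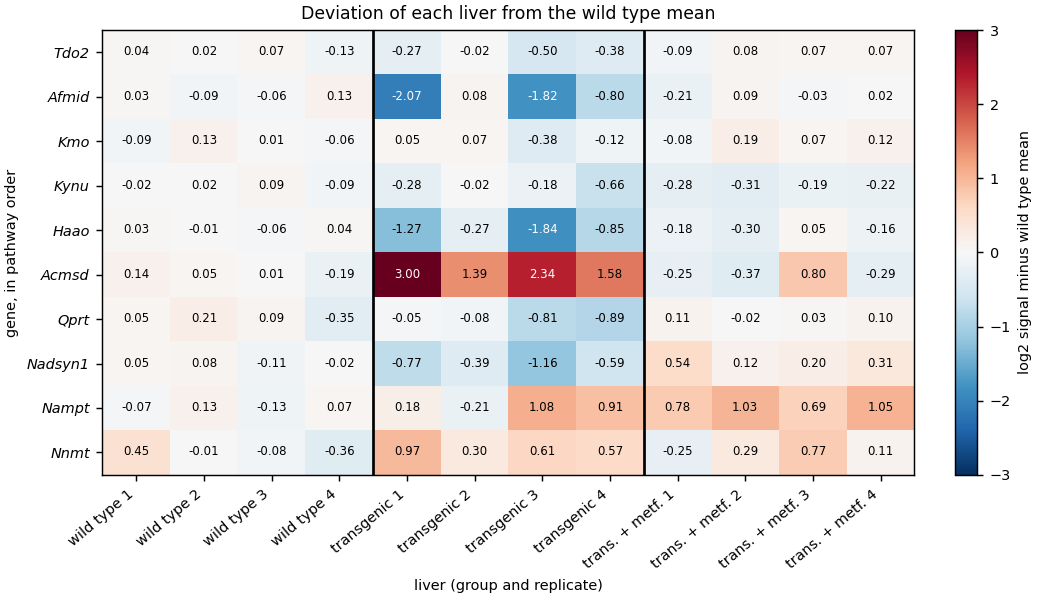
Deviation of each liver from the wild type mean on the log2 scale, with the 10 members down the side in pathway order and the 12 livers across by group; the colour and the printed number give the same value. Transgenic livers 1, 3 and 4 combine high Acmsd (1.58 to 3.00) with low Afmid and Haao (-2.07 to -0.80), and Nampt is above the wild type mean in all treated livers (0.69 to 1.05).

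As a description over the 12 arrays, Afmid and Haao followed each other most closely among the 45 pairs of members (Pearson r = 0.932, and 0.858 after group means were removed). Acmsd ran opposite to Nadsyn1 (r = -0.879, and -0.485 without group means) and to Afmid (r = -0.877, and -0.743). Nampt and Tdo2 were opposed mainly within groups (r = -0.313, and -0.778 without group means). These points share the 3 groups and the spread of the transgenic livers. Among other tested genes, the 5 with patterns most like that of Acmsd over the 12 arrays were Hspbap1 (r = 0.982), Derl1 (0.981), Degs1 (0.974), Dnajc12 (0.972) and Tprgl (0.972). For Nadsyn1 they were the glucose transporter gene Slc2a2 (r = 0.976), Zadh2 (0.968), the vitamin C transporter gene Slc23a1 (0.967), Tmem241 (0.967) and Dcun1d4 (0.966). With group means removed these values lay between 0.786 and 0.938.

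A further 46 genes of tryptophan and NAD metabolism were listed by role; 45 were measured through a row that names 1 gene, and 40 passed the filter on dim genes. In transgenic against wild type livers 4 of the 40 rose and 5 fell, in metformin-treated against untreated transgenic livers 11 rose and 4 fell, and in treated transgenic against wild type livers 2 rose and 0 fell. The shares called over all genes were those given above (14.1%, 24.7% and 2.43%). Median log2 differences over the 40 genes were -0.09, 0.15 and 0.07. With the sex-linked covariate, 4 of the 9 calls of the first comparison passed (Kyat1, Kyat3, Nudt12 and Slc7a5), 2 of the 15 of the second (Nmnat1 and Nudt12) and 0 of the 2 of the third. On arrays with Y-linked signal only, 0 of the 9 calls of the first comparison passed in limma, where 9 of all tested genes did. Adjusted p-values were 0.171 for Kyat1, 0.0680 for Kyat3, 0.190 for Nudt12 and 0.141 for Slc7a5. On arrays with Xist signal only, neither call of the third passed (0.135 for Aldh8a1 and 0.125 for Nmnat1), where 1 of all tested genes did.

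Around the kynurenine steps, Ido2, a paralogue of Ido1, fell by 1.78 in transgenic livers (-1.78 ± 0.48, adjusted p = 0.0312). It rose by 1.80 ± 0.48 with metformin (adjusted p = 0.0182). It read 7.85, 10.17, 7.02 and 8.39 in transgenic livers, against 10.02 to 10.33 in wild type and 9.92 to 10.38 in treated livers. Replicate 2 again stood with the wild type livers, as for Afmid. The transgenic call was lost without any one of transgenic replicates 1, 3 and 4 or of the 4 wild type arrays (adjusted p up to 0.0857) and on the 8 arrays compared (0.0645). The metformin call was lost without transgenic replicate 1 (0.0524) and on the 8 arrays compared (0.0590). Kyat1 and Kyat3, aminotransferases that can divert kynurenine to kynurenate, differed in opposite directions in transgenic livers. Kyat1 fell in transgenic livers (-0.92 ± 0.15, adjusted p = 0.00419) and rose with metformin (0.68 ± 0.15, adjusted p = 0.00692). Kyat3 rose in transgenic livers (1.15 ± 0.22, adjusted p = 0.00774), and treated livers differed from them by -0.36 ± 0.22 (adjusted p = 0.242). Aldh8a1, the dehydrogenase that takes up the product of Acmsd, differed by -0.11 between transgenic and wild type livers (adjusted p = 0.403) and read 12.23 to 12.39 in treated livers against 11.41 to 11.84 in all 8 others. It rose by 0.73 ± 0.09 over transgenic (adjusted p = 4.84e-04) and by 0.61 ± 0.09 over wild type livers (adjusted p = 0.0109), with estimates of 0.62 and 0.56 under the covariate. Of the 6 tested genes of this list 1 rose and 2 fell with the transgene, 3 rose and 0 fell with metformin against transgenic, and 1 rose against wild type; Ido1 did not pass the filter.

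Among genes of salvage and of the final step, Nmnat1, the nuclear enzyme that makes NAD from its mononucleotide, separated all 3 groups. It read 8.37, 8.32, 8.15 and 8.23 in wild type, 7.75, 7.93, 7.41 and 7.90 in transgenic, and 9.21, 9.07, 9.48 and 9.13 in treated livers. It fell in transgenic livers (-0.52 ± 0.12, adjusted p = 0.0203) and rose with metformin over transgenic (1.47 ± 0.12, adjusted p = 9.58e-05) and over wild type livers (0.96 ± 0.12, adjusted p = 0.00757). With the sex-linked covariate the estimates were -0.51, 1.47 and 0.95, with adjusted p-values of 0.0774, 0.0239 and 0.0626. Its fall was also lost without transgenic replicate 3 or wild type replicate 1 or 2 (adjusted p up to 0.0595). Nmrk1, a nicotinamide riboside kinase, rose by 1.88 ± 0.34 with metformin over transgenic livers (adjusted p = 0.00302), as did the nicotinate transporter Slc22a13 (0.34 ± 0.09, adjusted p = 0.0157, and 0.0636 with median centring). The purine nucleoside phosphorylase Pnp fell (-0.52 ± 0.13, adjusted p = 0.0125). Of 8 tested genes 0 rose and 1 fell in transgenic livers, 3 rose and 1 fell with metformin over transgenic, and 1 rose over wild type.

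Of 11 tested NAD-consuming enzymes, 1 rose and 1 fell in each comparison with the transgenic group, and 0 were called between treated and wild type livers. Sirt6, a nuclear deacylase, rose with the transgene (0.45 ± 0.11, adjusted p = 0.0201) and fell with metformin (-0.39 ± 0.11, adjusted p = 0.0212). The mitochondrial Sirt4 fell with the transgene (-0.39 ± 0.11, adjusted p = 0.0348), and Sirt7 rose with metformin (0.40 ± 0.13, adjusted p = 0.0446). The Sirt4 call was lost without any one of transgenic replicates 1, 3 and 4 or wild type replicates 1, 2 and 4 (adjusted p up to 0.112) and with median centring (0.102). The Sirt7 call was lost without any one of transgenic replicates 1, 3 and 4, wild type replicates 1, 2 and 4 or treated replicates 1, 3 and 4 (up to 0.121), with median centring (0.121), without the filter on dim genes (0.0524), with trended, robust eBayes (0.0511) and on the 8 arrays compared (0.0910). The Sirt6 rise was lost without transgenic replicate 3 or wild type replicate 1, 2 or 4 (up to 0.0646), and its fall without transgenic replicate 3 or treated replicate 4 (up to 0.0663) and with quantile normalization (0.0545). Sirt1 and Sirt2 were not called in any comparison; between treated and wild type livers they differed by 0.08 and 0.14. 

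Of 6 genes of NAD phosphorylation, hydride exchange and nicotinamide oxidation, Nudt12, a peroxisomal hydrolase of NADH, fell in transgenic livers (-0.64 ± 0.14, adjusted p = 0.0156) and rose with metformin (1.19 ± 0.14, adjusted p = 3.87e-04). Nnt, the mitochondrial transhydrogenase, was higher in treated than transgenic livers by 0.92 ± 0.30 (adjusted p = 0.0433). It split with the sex-linked signal in wild type livers, at 10.41 and 10.92 with Xist and 9.34 and 9.42 with Y-linked signal, and its estimate was -0.24 (adjusted p = 0.644) with the covariate. Its call was also lost without any one of transgenic replicates 1, 3 and 4, wild type replicate 1 or the 4 treated arrays (up to 0.125), with median centring (0.0572) and without the filter on dim genes (0.0553). Nadk and Nadk2, the NAD kinases, differed between treated and wild type livers by 0.07 and -0.04, neither called.

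Among genes that move tryptophan or use it otherwise, Slc7a5, the large neutral amino acid transporter, read 7.61, 7.34, 7.27 and 7.77 in wild type, 9.89, 8.38, 9.16 and 8.78 in transgenic, and 7.92, 7.76, 7.76 and 7.67 in treated livers. Every transgenic liver stood above all others. It rose by 1.56 ± 0.25 over wild type (adjusted p = 0.00419) and fell with metformin (-1.28 ± 0.25, adjusted p = 0.00426). Its partner chain Slc3a2 differed by -0.02 in transgenic livers (adjusted p = 0.910) and rose by 0.41 ± 0.12 with metformin (adjusted p = 0.0270), an estimate that was 0.09 with the sex-linked covariate. That call was lost without transgenic replicate 2 or 4 or treated replicate 1, 2 or 4 (up to 0.0729), with median centring (0.0516) and on the 8 arrays compared (0.0510). Wars, which loads tryptophan onto its transfer RNA, rose with the transgene (0.37 ± 0.10, adjusted p = 0.0333) and fell with metformin (-0.41 ± 0.10, adjusted p = 0.0127). Its rise was lost without any one of transgenic replicates 1, 3 and 4 or of the 4 wild type arrays (adjusted p up to 0.0983) and with quantile normalization (0.0521). Maob, an amine oxidase, rose with metformin (0.70 ± 0.14, adjusted p = 0.00540). With the sex-linked covariate its estimate was 0.31 (adjusted p = 0.400), and wild type livers read 11.62 and 11.80 with Xist and 11.19 and 11.35 with Y-linked signal. Of 9 tested genes 2 rose and 0 fell in transgenic livers, 2 rose and 2 fell with metformin over transgenic, and 0 were called by limma between treated and wild type livers.

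**Figure D4:**
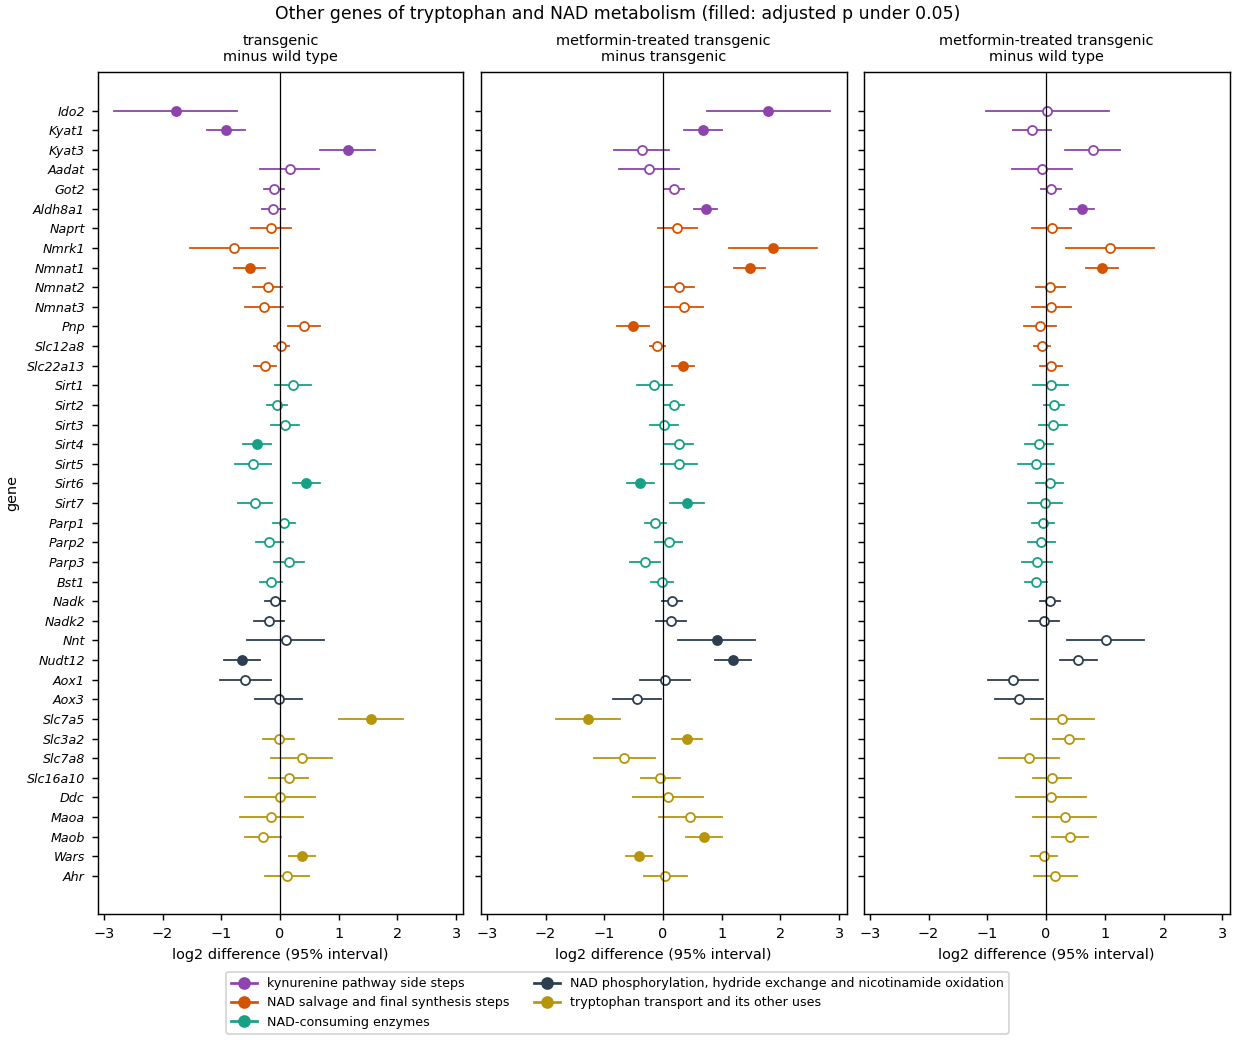
Log2 differences with 95% intervals of the limma fit for the 40 tested genes of the 5 role lists (colours) in the 3 comparisons; filled points passed an adjusted p of 0.05. Ido2, Kyat1, Kyat3 and Slc7a5 show the largest called differences between transgenic and wild type livers, and in treated transgenic against wild type livers Aldh8a1 (0.61) and Nmnat1 (0.96) are the filled points.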

How the data were processed

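Liver RNA of 12 mice was hybridised to Affymetrix arrays. Sample titles gave each array's group and replicate number and describe biological replicates. The authors deposited 1 table of log2 signals with 35556 rows. Affymetrix Expression Console is named in the submitters' processing notes. Its summarisation, background and normalization settings were not given in the sources used here. Array medians lay between 5.69 and 5.85, and no further normalization was applied. The 4 transgenic medians (5.71 to 5.74) all lay below the 4 wild type medians (5.76 to 5.83), while treated ones ran from 5.69 to 5.85. Median centring is therefore among the alternatives. The number of arrays limits the precision. Of 23410 annotated rows 21789 name 1 gene; 21698 of these matched a RefSeq gene table (GRCm38.p6) by Entrez identifier, which changed 0 symbols. The row with the highest mean stood for a gene (each member has 1 row), and the 25% of genes with the lowest mean were left out. The fit used R 4.3.3 and limma 3.58.1 (lmFit and eBayes, two-sided, all 12 arrays, no covariate), with Benjamini-Hochberg adjustment over 14953 genes at 0.05; values after ± are standard errors unless called SD. The method was run on simulated data in which each gene had the same spread in all groups. The wider spread of transgenic livers was thus not simulated. The members, the 5 role lists and the marker lists were chosen with earlier results of these data known. All members are named; of each role list, up to 4 called genes with the smallest p per comparison, or else the first 2, and for the 2 members with the smallest F-test p the 5 genes of highest Pearson r, predicted genes left out; other genes serve as markers. Alternatives covered the filter, the rows of a gene, scaling, eBayes settings, array weights, the arrays included, a replicate block and the sex-linked signal (Xist minus the mean of Y-linked genes). Promoters were the 250 bases before the start sites in the RefSeq table, searched on both strands. That of 1 member is not reported here.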

Additional observations from a re-analysis of the deposited data

Results flagged for a closer look

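Each member and each called gene named from the role lists was checked in each group of 4 livers for a value far from the other 3 (Dixon's criterion on the gap over the whole range). Of 81 such groups of values 6 were marked, and chance marks about 1 in 20. For Acmsd, metformin-treated replicate 3 read 9.46 where the other 3 read 8.29 to 8.40, so that 1 treated liver stood between the treated and the transgenic range. For Tdo2, metformin-treated replicate 1 read 12.76 against 12.92 to 12.93. In transgenic livers, Sirt7 read 7.88 in replicate 2 against 7.40 to 7.45, Slc22a13 5.83 in replicate 2 against 5.98 to 6.01, and Sirt4 6.68 in replicate 3 against 6.91 to 6.95. Wars read 7.88 in wild type replicate 4 against 8.01 to 8.02.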

How the results depend on the processing

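Counts of called members are followed in brackets by the count over all tested genes. Between transgenic and wild type livers 3 members were called (2111). The count was 9 with array weights (4818), 2 with the sex-linked covariate (650), and 8 when transgenic replicate 2 was also left out (3013). On arrays with Y-linked signal only it was 0 (9), with 4 members at an unadjusted p under 0.05. With single arrays left out it was 2 to 9 (764 to 4004). It was 9 without transgenic replicate 2 (4004) and 5 without metformin-treated replicate 3 (3254). The 5 members called between metformin-treated and untreated transgenic livers (3695) became 2 on the 8 arrays compared (2354). They became 0 with the covariate (82), with 5 at an unadjusted p under 0.05. With single arrays left out they were 3 to 6 (2419 to 4828). The 3 came from leaving out transgenic replicate 1 or 3 or metformin-treated replicate 2, 3 or 4. The 0 between treated and wild type livers (364) became 2 with array weights, Nadsyn1 and Nampt (3057). On the 8 arrays compared 1 was called, Nampt (515). With single arrays left out the count was 0 to 1 (70 to 775). The F test's 5 members (3613) became 3 without the filter on dim genes (3448) and 9 with array weights (7559). They became 0 with the covariate (340), with 6 at an unadjusted p under 0.05. With single arrays left out they were 2 to 8 (1998 to 5119). With transgenic replicate 2 and metformin-treated replicate 3 both left out, a choice made after the data were seen, the counts were 9 (5500), 7 (5774), 1 (1414) and 9 (6780) in this order. The other alternatives run gave counts within 1.5 times of these.

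Signs turned for small, uncalled differences of members and for the called difference of Nnt. For treated minus untreated transgenic livers, Kynu was -0.025 with median centring and -0.089 to 0.13 with single arrays left out. For treated transgenic minus wild type, Acmsd was 0.021 with the covariate, 0.038 without transgenic replicate 2 as well, 0.0013 on arrays with Xist signal, and -0.30 to 0.087 with single arrays left out. Ranges with single arrays left out were -0.013 to 0.071 for Tdo2, -0.074 to 0.026 for Afmid and -0.061 to 0.12 for Qprt. Nnt, treated minus untreated transgenic and called at 0.92, was -0.24 with the covariate and -0.17 without transgenic replicate 2 as well. The cause of these changes was not tested. The sample titles do not say whether equal replicate numbers pair the samples, and correlations among so few arrays cannot decide it. Of 12 same-numbered pairs of arrays 4 correlated above 0.1 in their deviations from group means (-0.18 to 0.24). Of 12 arrays 5 were closest to an array of their own number. With the replicate block 3, 5 and 0 members were called in the 3 comparisons and 4 by the F test. The counts over all tested genes were then 1807, 3349, 135 and 3016.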
